A study of Oryctolagus cuniculus with 8 samples.

Results

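The NF-kB subunits and inhibitors described here are 5 subunit genes (NFKB1, NFKB2, REL, RELA and RELB), the IkB genes NFKBIA and NFKBIE, and TNFAIP3, which encodes a ubiquitin-editing enzyme that dampens the pathway. They were chosen by name, 8 genes in all, among 20922 gene entries. An entry of that exact name was found for 6 of the 8. RELA and RELB had no such entry and count as not measured, so the dimers that contain them are not analysed here. All 6 measured genes passed the filter on low counts.

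NF-kB is a family of transcription factors built from subunits that bind DNA as pairs, and most of these pairs wait in the cytoplasm, held there by inhibitor proteins of the IkB family. Signals from cytokine receptors, Toll-like receptors and antigen receptors activate a kinase complex that marks the IkB proteins for destruction, and the freed dimers then enter the nucleus. Several of the genes they switch on encode inhibitors of the pathway, which close a feedback loop. In the ocular surface epithelium the pathway is known for its part in responses to injury and infection.

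The SP libraries hold side population cells, which pump out the dye Hoechst and therefore sort as dim, and the NSP libraries hold the remaining cells, the non-side-population. Both came from the limbus, the rim of the cornea where its epithelial stem cells are found, of New Zealand white rabbits. The labels give no treatment, genotype or age. They give weights from 2.5 kg to an upper value that rises in even steps from sample to sample and ends at 3.7 kg. There were 4 SP and 4 NSP samples of total RNA, sequenced on an Ion Proton instrument. The comparison asks how gene expression of the dye-excluding cells differs from that of the other limbal cells. The table names the group of each library but no sample, so libraries are numbered by their order in it. The labels do not say that the libraries came from separate animals, and p-values measure the spread between these libraries, which may be technical.

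SP libraries held 15553295 to 18931836 exon reads and NSP libraries 20445565 to 23529101. Reads in introns made up 27.1 to 40.7% of gene reads in SP and 21.5 to 24.9% in NSP libraries. SP library 4 had the fewest exon reads, the highest intron share and the lowest quality weight, 0.293, in a fit that weights libraries. The label limbal epithelial was checked against markers. All 16 epithelial markers tested were lower in SP cells, with a summed level of 910 to 8613 counts per 1000000 reads (CPM) in SP and 22927 to 46554 CPM in NSP libraries, and none was at 0 in any library. Markers of endothelium (13 of 14 tested), of leukocytes in general (9 of 10), of T and NK cells (11 of 11), of B and plasma cells (7 of 8), of myeloid cells (7 of 8) and of melanocytes (9 of 10) were higher in SP cells, and of 8 stromal markers 6 were higher and 1 was lower. Over all genes tested, 17.7% were higher and 13.0% lower. The filter asks for 4 libraries, so a marker near 0 in NSP cells was tested only where SP cells were high. Every SP but not every NSP library reached its level for 10 endothelial, 9 T and NK and 7 B and plasma cell markers. The same held for 5 melanocyte, 5 stromal, 4 myeloid and 1 pan-leukocyte markers, and these counts are descriptions. In these bulk samples, fewer cells of a type and less RNA per cell cannot be told apart.

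NFKBIE, which encodes IkB epsilon, an inhibitor that holds REL- and RELA-containing dimers, was about an order of magnitude higher in SP than in NSP cells. None of the other 5 measured genes passed the test: NFKB1, NFKB2, REL, NFKBIA and TNFAIP3 had overlapping ranges in the 2 groups. REL passed it once SP library 4 was left out. Per exon length, NFKBIA and TNFAIP3 were the most abundant of the 6 genes in both groups. Of the 6 genes, 1 was called higher and 0 lower at a limma-voom adjusted p of 0.05, beside 30.7% of all 10012 genes tested (17.7% called higher and 13.0% lower). No measured gene was lower at an unadjusted p of 0.05 either, and limma-trend also called 1 higher and 0 lower. The median log2 fold change, SP over NSP, was 0.42 over the 6 genes and 0.12 over all genes tested.

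**Figure D1:**
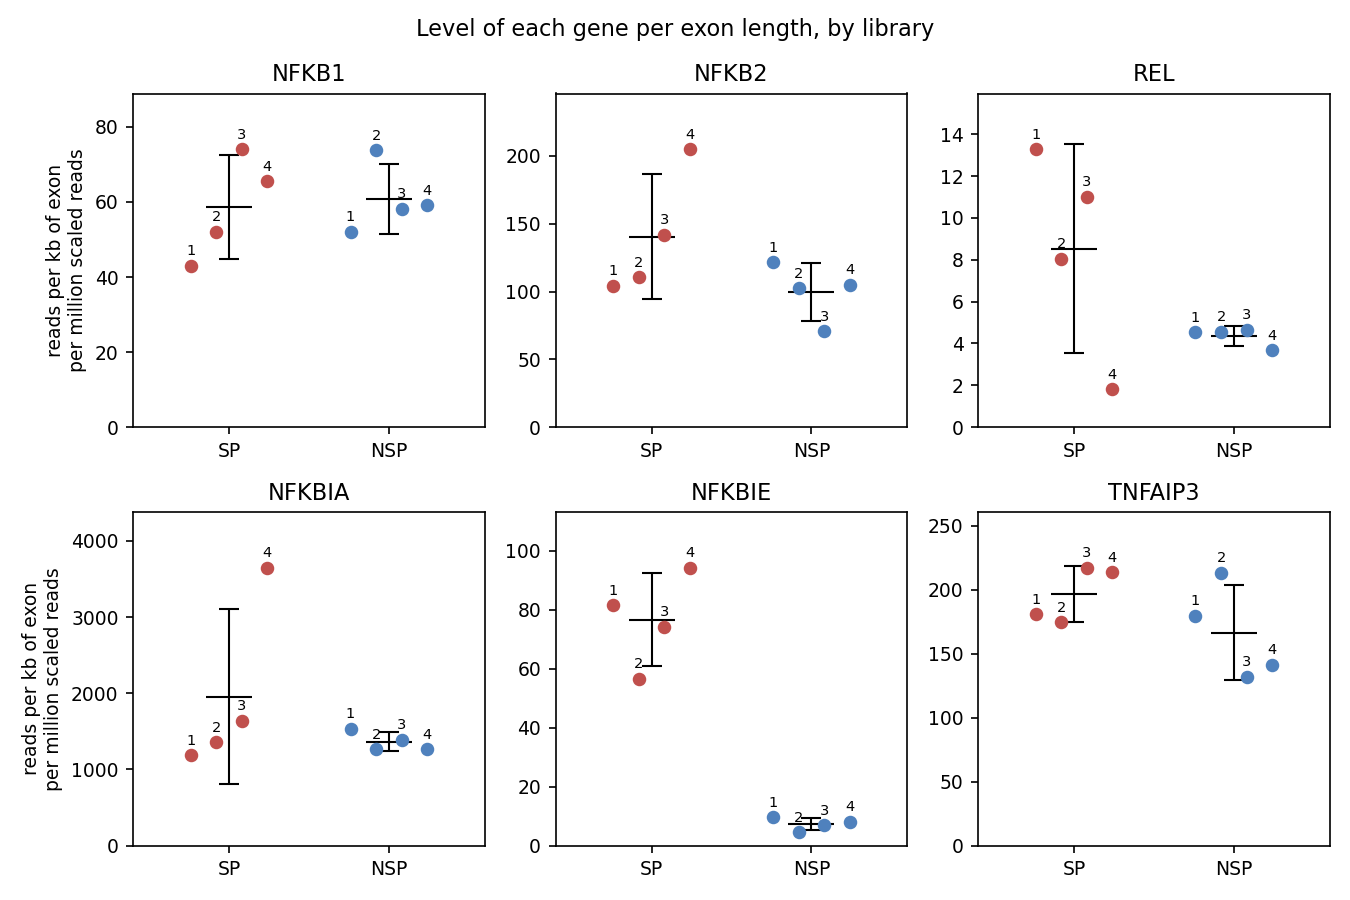
Level of each measured gene in reads per kilobase of exon per 1000000 scaled reads (linear axes from 0, a different scale in each panel), SP left and NSP right, with 1 numbered point per library and the mean ± SD of 4 libraries in black. The NFKBIE points lie apart in the 2 groups, SP library 4 is the lowest of the REL points, and the same library is the highest for NFKBIA.

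Per exon length, the levels fell into a clear order. In SP libraries the mean level was 1957 reads per kilobase of exon per 1000000 scaled reads (RPKM below) for NFKBIA, 197 for TNFAIP3, 140 for NFKB2, 76.7 for NFKBIE, 58.7 for NFKB1 and 8.54 for REL. In NSP libraries it was 1365 RPKM for NFKBIA, 167 for TNFAIP3, 99.96 for NFKB2, 60.8 for NFKB1, 7.36 for NFKBIE and 4.36 for REL. Each pair of neighbours kept its order in 4 of 4 libraries of its group. The ranges of some neighbours nevertheless overlapped: TNFAIP3 with NFKB2 and NFKBIE with NFKB1 in SP, and NFKB2 with NFKB1 and NFKBIE with REL in NSP. The 2 groups share this order except for NFKBIE, which stood above NFKB1 in SP cells and below it in NSP cells. The level of NFKBIA was above that of 99.6% of tested genes in SP and 99.4% in NSP cells. For NFKBIE the share of tested genes below it was 88.7% in SP and 50.4% in NSP cells, and for REL it was 48.2% in SP and 40.2% in NSP cells.

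Among the subunits, NFKB1 encodes a precursor that is processed to a DNA-binding subunit of the canonical dimers. It had 156, 189, 269 and 238 CPM in SP libraries 1 to 4, against 189, 268, 212 and 215 CPM in NSP libraries 1 to 4. The NSP range lies inside the SP range. The mean was 213 ± 50.3 CPM in SP cells against 221 ± 33.5 CPM in NSP cells (SD, n = 4 each), and the fold change was 0.953 with a 95% interval of 0.666 to 1.36 (limma-voom adjusted p = 0.849). Among the 6 genes NFKB1 had the smallest fitted difference.

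NFKB2 encodes the precursor of the noncanonical pathway, which is cut to its active form after signals such as lymphotoxin. It had 286, 303, 389 and 563 CPM in SP libraries 1 to 4, against 334, 281, 194 and 289 CPM in NSP libraries 1 to 4. The highest value was that of SP library 4 and the lowest that of NSP library 3, and the other 6 libraries lay between 281 and 389 CPM. Its log2 fold change was 0.47 ± 0.28 (SE; limma-voom adjusted p = 0.226), a fold of 1.38 with an interval of 0.906 to 2.11. Without SP library 4 the log2 value was 0.13.

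REL encodes c-Rel, a subunit with a transactivation domain that is known best from lymphocytes. Its exon reads gave 76.4, 46.3, 63.3 and 10.4 CPM in SP libraries 1 to 4, against 26.04, 26.2, 26.8 and 21.2 CPM in NSP libraries 1 to 4. SP libraries 1 to 3 were above every NSP library, and SP library 4, with 149 reads, was below every one. The mean was 49.1 ± 28.6 CPM in SP cells against 25.1 ± 2.62 CPM in NSP cells (SD, n = 4 each), and the log2 fold change over all 8 libraries was 0.70 ± 0.54 (SE; limma-voom adjusted p = 0.358). The interval of the fold, 0.707 to 3.73, spans values below and above 1. Without SP library 4 the mean of the 3 SP libraries was 62.0 ± 15.1 CPM (SD, n = 3), and the log2 fold change was 1.15 ± 0.23 (SE; limma-voom adjusted p = 0.00530). In that fit 37.5% of all genes tested were called, 20.5% higher and 17.1% lower, so calls were more frequent overall. With all libraries kept but weighted by quality, REL reached a log2 value of 1.02 with an adjusted p of 0.0367, in a fit that called 39.4% of genes, 23.8% higher and 15.6% lower.

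The libraries that were high or low in REL also differed in marker genes of other cell types. The summed level of the pan-leukocyte markers was 2964, 3468, 5729 and 1959 CPM in SP libraries 1 to 4, against 286 to 687 CPM in NSP libraries. For the endothelial markers it was 2175, 6884, 8332 and 19857 CPM in SP libraries 1 to 4, against 23.7 to 31.1 CPM in NSP libraries. The T and NK sum was 738, 1740, 2664 and 1074 CPM in SP libraries 1 to 4, and the B and plasma cell sum was 701, 286, 428 and 872 CPM. SP library 4, where REL exon reads were lowest, thus had the lowest pan-leukocyte sum but the highest endothelial and B and plasma cell sums. SP library 1, where REL exon reads were highest, had the lowest T and NK and endothelial sums of the SP libraries. Its myeloid and stromal sums were also the lowest of these libraries (334 and 216 CPM). Its melanocyte and epithelial sums were the highest of them (13630 and 8613 CPM). The part of these cell types in the level of REL was not tested.

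Introns gave a second reading of the same genes. Reads inside introns can come from RNA that has not been spliced or from DNA, among other sources. The annotation that marks introns is not given in the sources used here. Intron reads are counted apart from exon reads. For REL they came to 263, 197, 195 and 164 scaled intron CPM in SP libraries 1 to 4, against 108, 92.8, 103 and 86.4 in NSP libraries 1 to 4. Here SP library 4 also lay above every NSP library, and the groups did not overlap. The log2 fold change of REL intron reads was 1.05 ± 0.21 (SE; limma-voom adjusted p = 0.00509), in a fit that called 23.2% of 12722 genes, 12.3% higher and 10.8% lower. With each library left out in turn it ranged from 0.93 to 1.16, with adjusted p between 0.00440 and 0.0186. Intron reads were 59.9, 59.6, 58.4 and 89.4% of the REL gene reads in SP libraries 1 to 4, against 50.2 to 62.2% in NSP libraries. In SP library 4 a REL exon level below every NSP library thus stood beside an intron level above every NSP library. Over all genes, the intron share of that library was 40.7%, the highest of the 8, and its part in the REL value was not tested.

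The intron reads of NFKB1 (log2 fold change −0.16), NFKB2 (0.46) and TNFAIP3 (−0.10) showed no difference that passed the test, with limma-voom adjusted p of 0.703, 0.354 and 0.840. For NFKBIA introns the log2 fold change was 1.11 ± 0.36 (SE; limma-voom adjusted p = 0.0424), with 52.8, 92.9, 89.7 and 183 scaled intron CPM in SP libraries 1 to 4, against 58.2, 49.2, 34.6 and 37.3 in NSP libraries 1 to 4. SP library 1 lay inside the NSP range. This call was lost when any library other than SP library 1 was left out, with adjusted p from 0.0544 to 0.107, and without SP library 4 the log2 value was 0.80. NFKBIE had few intron reads, 42 to 81 per SP library and 2 to 17 per NSP library, and their log2 fold change was 3.09 ± 0.64 (SE; limma-voom adjusted p = 0.00557), or 2.46 without NSP library 4 (adjusted p = 0.0194). The difference between exon and intron fold changes was not tested for any gene.

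**Figure D2:**
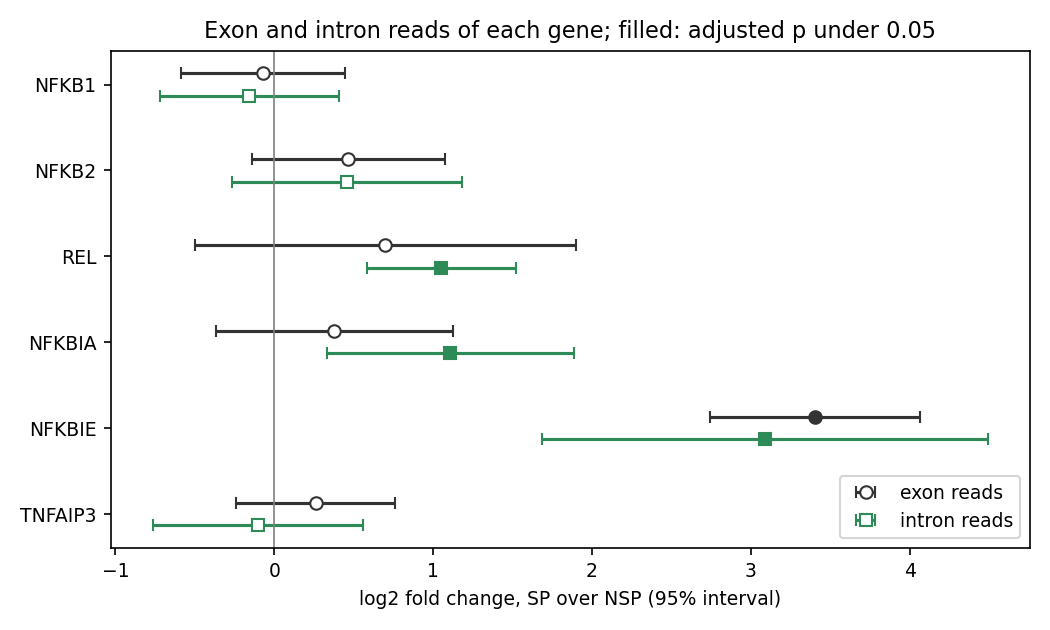
Log2 fold change, SP over NSP, with its 95% interval for exon reads (circles) and intron reads (squares) of each measured gene, filled where the adjusted p is under 0.05. Both readings of NFKBIE are far to the right at 3.40 and 3.09, and the intron interval of REL is narrower than its exon interval.

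Among the inhibitors, NFKBIA encodes IkB alpha, the inhibitor that is degraded fastest after stimulation and is itself a target of NF-kB. It had 1824, 2089, 2530 and 5623 CPM in SP libraries 1 to 4, against 2364, 1952, 2142 and 1956 CPM in NSP libraries 1 to 4. SP library 4 was more than double any other library, and SP libraries 1 to 3 spread around the NSP values on both sides. The mean was 3016 ± 1762 CPM in SP cells against 2103 ± 195 CPM in NSP cells (SD, n = 4 each), with a log2 fold change of 0.38 ± 0.34 (SE; limma-voom adjusted p = 0.429) and a fold interval of 0.774 to 2.18. Without SP library 4 the log2 value turned to −0.11 (adjusted p = 0.698). That library was also the one with the highest endothelial and B and plasma cell sums and intron share, as given above. It had the lowest pan-leukocyte sum of the SP libraries and the lowest quality weight. The part of these features in the NFKBIA value was not tested.

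NFKBIE had 174, 121, 159 and 201 CPM in SP libraries 1 to 4, against 20.6, 9.88, 14.9 and 17.4 CPM in NSP libraries 1 to 4. These rest on 2341 to 3201 reads per SP library and 214 to 457 per NSP library. Every SP library was several times above every NSP library, and no range came near the other. The mean was 164 ± 33.6 CPM in SP cells against 15.7 ± 4.52 CPM in NSP cells (SD, n = 4 each). Its log2 fold change was 3.40 ± 0.30 (SE; limma-voom adjusted p = 0.000105), a fold of 10.6 with a 95% interval of 6.69 to 16.8. Groups without overlap were found for 32.8% of tested genes, 18.8% with every SP library above every NSP library. Leaving out each library in turn gave log2 values from 3.17 to 3.54, and reads across exon junctions alone gave 3.47. In the authors' deposited table, NFKBIE has a fold of −8.55, written there as NSP over SP with a minus sign for genes higher in SP. That fold is the ratio of mean exon reads, 2845 in SP and 332.75 in NSP libraries, without scaling for depth. The EDGE test there has its own fold of −9.58, with a corrected EDGE p of 3.11e-13. The same deposited table gives REL a corrected EDGE p of 0.400 and the other 4 genes values of 0.855 or above.

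NFKBIE is known to be abundant in lymphocytes. The summed pan-leukocyte, T and NK, B and plasma cell, endothelial, myeloid, stromal and melanocyte markers were all higher in SP libraries, as NFKBIE was. The T and NK marker sum was 738 to 2664 CPM in SP and 3.23 to 8.31 CPM in NSP libraries, with CD8B and CXCR6 at 0 in every NSP library. The B and plasma cell sum was 286 to 872 CPM in SP and 3.44 to 7.11 CPM in NSP libraries, with MS4A1, BANK1 and MZB1 at 0 in every NSP library. Melanocyte markers summed to 2176 to 13630 CPM in SP and 187 to 335 CPM in NSP libraries, myeloid markers to 334 to 481 CPM in SP and 31.1 to 88.1 CPM in NSP libraries, and stromal markers to 216 to 390 CPM in SP and 43.7 to 57.1 CPM in NSP libraries, where COL3A1 and LUM were at 0. Within the SP libraries, the highest NFKBIE value was 1.66 times the lowest. The same ratio was 1.44 for the myeloid, 1.81 for the stromal, 2.92 for the pan-leukocyte, 3.05 for the B and plasma cell, 3.61 for the T and NK, 6.26 for the melanocyte and 9.13 for the endothelial sum. The B and plasma cell sum was 701, 286, 428 and 872 CPM in SP libraries 1 to 4, which puts these libraries in the same order as NFKBIE does. None of the other sums had that order, but with 4 libraries and several sums a match can arise by chance. The pan-leukocyte sum was 2964, 3468, 5729 and 1959 CPM in SP libraries 1 to 4, lowest where NFKBIE was highest. The T and NK sum was 738, 1740, 2664 and 1074 CPM in the same libraries. Within the B and plasma cell sum, MZB1 had a mean of 340 CPM in SP cells, beside 6.71 CPM for MS4A1 and 8.30 CPM for BANK1. The part of these cell types in the NFKBIE difference was not tested.

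TNFAIP3 had 806, 778, 968 and 952 CPM in SP libraries 1 to 4, against 800.2, 950.5, 589 and 630 CPM in NSP libraries 1 to 4. The 4 SP libraries lay close together, above NSP libraries 3 and 4, and NSP libraries 1 and 2 lay within their range. The mean was 876 ± 98.0 CPM in SP cells against 742 ± 166 CPM in NSP cells (SD, n = 4 each), and the fold was 1.197 with an interval of 0.846 to 1.69 (limma-voom adjusted p = 0.416). Intron reads were 1.498 to 3.12% of its gene reads in SP and 2.13 to 2.57% in NSP libraries.

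**Figure D3:**
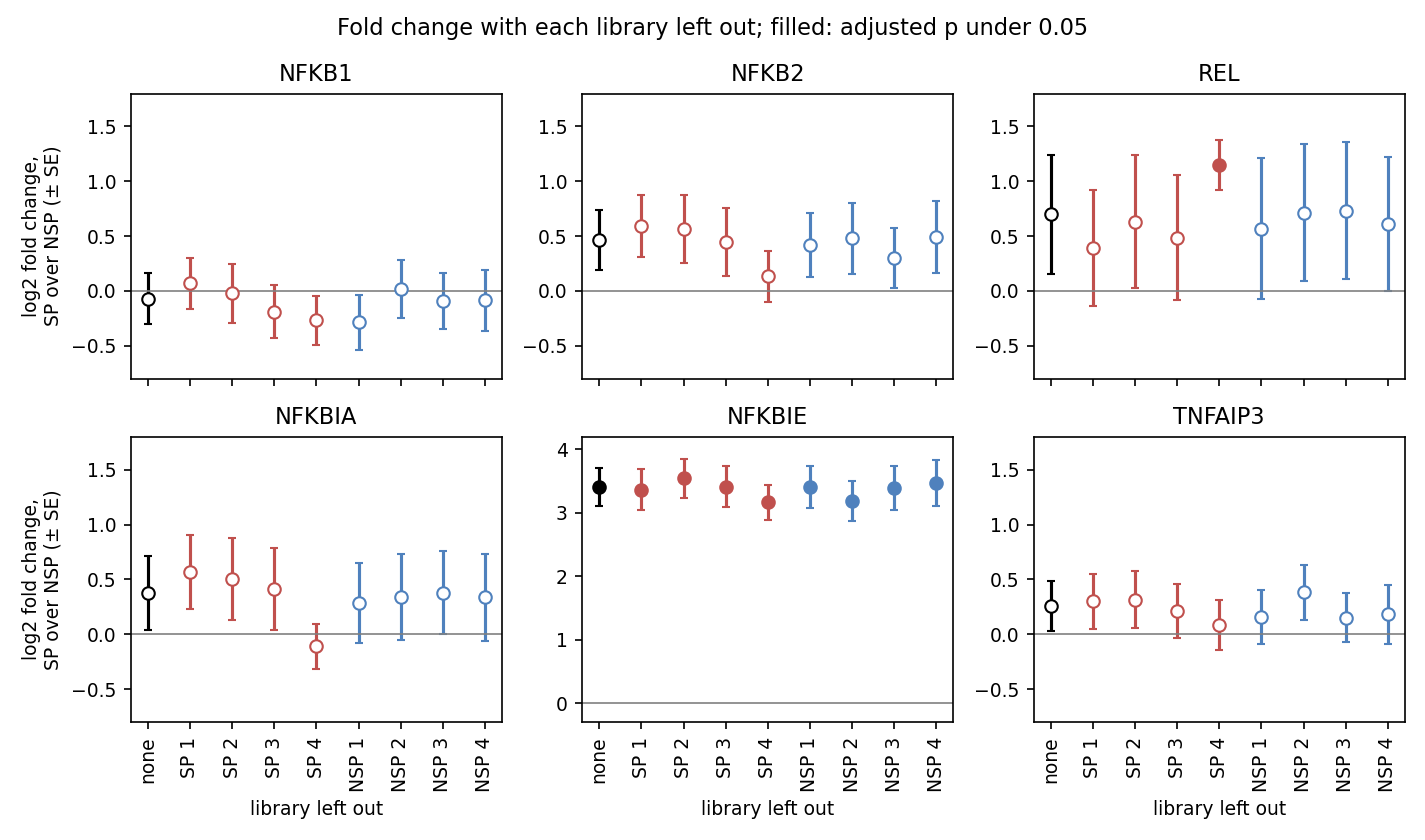
Log2 fold change, SP over NSP, with its standard error for each measured gene when none or 1 of the 8 libraries is left out (the NFKBIE panel has its own axis), filled where the adjusted p is under 0.05. NFKBIE stays between 3.17 and 3.54, REL is filled only without SP library 4, and NFKBIA falls to −0.11 without that library.

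Ratios among these genes were also taken, from levels per exon length. NFKBIE stood at 6.89, 4.18, 4.52 and 2.59% of the NFKBIA level in SP libraries 1 to 4, against 0.628, 0.365, 0.503 and 0.644% in NSP libraries 1 to 4. IkB epsilon transcripts were the minor of the 2 IkB forms in every library, by a narrower margin in SP cells. The NFKB2 level divided by the NFKB1 level was 2.42, 2.12, 1.91 and 3.13 in SP libraries 1 to 4, against 2.34, 1.39, 1.21 and 1.78 in NSP libraries 1 to 4, so that NSP library 1 lay within the SP range. REL made up 8.28, 4.72, 4.85 and 0.663% of the summed NFKB1, NFKB2 and REL level in SP libraries 1 to 4, against 2.54, 2.52, 3.50 and 2.19% in NSP libraries 1 to 4. The sum itself was 160 to 272 RPKM in SP and 133 to 181 RPKM in NSP libraries. NFKBIA was 8.99 ± 2.95 times the summed subunit level in SP and 8.40 ± 1.501 times in NSP cells (SD, n = 4 each). These ratios are descriptions without a test, and the sums lack RELA and RELB.

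**Figure D4:**
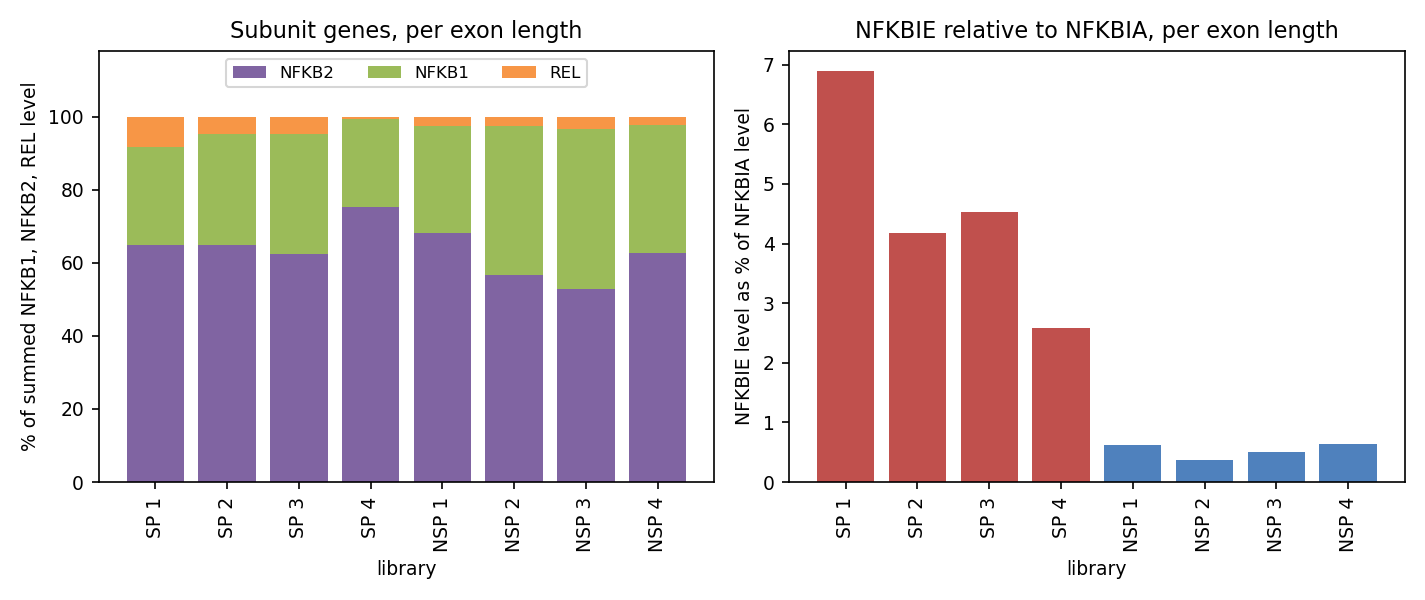
Left, the share of NFKB2, NFKB1 and REL in their summed level per exon length in each library (%). Right, the NFKBIE level as a percentage of the NFKBIA level, which is 2.59 to 6.89% in SP and 0.365 to 0.644% in NSP libraries.

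Each measured gene was set beside the genes whose pattern over the 8 libraries was most like its own, by the root mean square difference of centred log2(CPM + 0.5). For NFKBIE these were RGS14 at 0.293 and GLRX at 0.3304, against a median of 1.75 over all other named genes. For REL they were ATP2B1 at 0.102 and XIAP at 0.128 (median 1.06), and like REL both were lowest in SP library 4, where ATP2B1 had 18.3 CPM and XIAP 2.93 CPM. For NFKB1 they were DPY19L1 at 0.129 and IRAK4 at 0.143, and for NFKB2 POMT2 at 0.0843 and RBCK1 at 0.0949. For NFKBIA they were MRPS2 at 0.132 and MARCH3 at 0.158, and for TNFAIP3 DYNC1LI2 at 0.153 and ST3GAL3 at 0.155. All were picked as the closest genes, so values below the median were fixed in advance.

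The rest of the pathway was described by lists, whose shares are read against the 17.7% of all genes tested that were higher and the 13.0% that were lower. The filter asks for 4 libraries, so a gene near 0 in NSP cells was tested only where SP cells were high. In 5 of the 23 tested genes with known NF-kB sites, 4 of 16 receptors, 4 of 11 ligands, 3 of 25 kinases and adaptors and 1 of 14 other inhibitors, every SP library but not every NSP library reached the level of the filter, and each of these genes was called higher. Over all genes, 594 of 813 such genes were. In the other direction, 1 receptor and 1 ligand reached the level in every NSP but not every SP library. That receptor, EDAR, was called lower and the ligand was not. Over all genes, 334 of 714 genes of this kind were called lower. List counts and medians are therefore descriptions. Of the other IkB proteins and feedback inhibitors, 14 of 23 listed genes were tested, 3 rose (21.4%) and 1 fell (7.14%), with a median log2 fold change of 0.19. These shares are not far from those of all genes. Changes of pathway genes below are on the log2 scale, SP over NSP. NFKBIB, which encodes IkB beta, had 84.7 ± 25.6 CPM in SP cells against 54.6 ± 7.07 CPM in NSP cells (SD, n = 4 each; limma-voom adjusted p = 0.100). NFKBIZ, a nuclear IkB protein that acts as a coactivator, had 684 ± 250 CPM in SP cells against 1058 ± 228 CPM in NSP cells (adjusted p = 0.121). NLRC5, a regulator of MHC class I genes that is also reported to restrain the IkB kinases, rose by 1.93 on the log2 scale (adjusted p = 0.0114). The TNFAIP3-binding proteins TNIP1, at 0.89 (adjusted p = 0.0464), and TNIP3, at 3.68 (adjusted p = 0.0209) on 200 SP and 40 NSP reads, were higher in SP cells. The size of the TNIP3 difference was 2.67 without NSP library 3, 4.57 without NSP library 4 and 1.96 with limma-trend. OTUD7B, a deubiquitinase that restrains the noncanonical pathway, fell by 0.94 (adjusted p = 0.0280). These 4 calls were not stable. Without NSP library 1, in a fit that called 11.8% of all genes higher and 12.2% lower, none of the 3 rises and no fall passed, with adjusted p of 0.0542 for NLRC5, 0.148 for TNIP1, 0.0720 for TNIP3 (0.0572 with quality weights and all libraries) and 0.0503 for OTUD7B. The call of TNIP1 was lost in 8 of 14 alternatives, among them both other scalings and the fits without SP library 2 (adjusted p = 0.121), SP library 4 (0.135), NSP library 2 (0.140) or NSP library 4 (0.104). OTUD7B was also lost without SP library 3 (adjusted p = 0.0709), NSP library 3 (0.0608) or NSP library 4 (0.0600). BCL3 and CYLD are not analysed here.

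Of the kinases and adaptors upstream of NF-kB, 25 of 41 listed genes were tested, 6 rose (24.0%) and 1 fell (4.00%), with a median of 0.61. The largest rises were those of 2 kinases of antigen receptor signalling. PRKCQ, known from T cells, had 2714 reads over the SP libraries and 12 over the NSP libraries, and PRKCB, known from B cells, had 2924 SP and 48 NSP reads. Their fitted log2 changes of 9.07 (limma-voom adjusted p = 0.00578) and 7.17 (adjusted p = 0.00220) rest on NSP libraries at or near 0. PRKCQ had 10.05 without NSP library 1, which held all 12 reads, and PRKCB had 7.89 without NSP library 1 and 6.08 without NSP library 3. With limma-trend the values were 5.53 for PRKCQ and 5.33 for PRKCB. TRAF5, an adaptor of TNF family receptors, rose by 2.52 ± 0.40 (SE; limma-voom adjusted p = 0.00125). BTRC, the ubiquitin ligase subunit that recognises phosphorylated IkB, fell by 0.82 ± 0.22 (SE; limma-voom adjusted p = 0.0183), a call lost without SP library 2 (adjusted p = 0.0532) or NSP library 2 (0.0543). CHUK, the kinase of the noncanonical arm, had 27.4 ± 12.1 CPM in SP cells against 17.5 ± 6.50 CPM in NSP cells (SD, n = 4 each; limma-voom adjusted p = 0.345), and without SP library 4 its log2 fold change was 0.87 with an adjusted p of 0.0455. MAP3K14, which encodes the kinase NIK of the same arm, had 49.8, 38.2, 58.99 and 161 CPM in SP libraries 1 to 4, against 42.2 to 86.1 CPM in NSP libraries. Its log2 fold change was 0.043 (adjusted p = 0.949), and its sign changed with the scaling. BIRC3, an inhibitor of NIK and a target of NF-kB, had 84.4 ± 7.72 CPM in SP cells against 54.6 ± 13.7 CPM in NSP cells (SD, n = 4 each), without overlap but with a limma-voom adjusted p of 0.0595. Without NSP library 4 the number of kinases and adaptors that rose was 3, in a fit that called 12.7% of all genes higher. IKBKB, IKBKG and TRAF1 are not analysed here.

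Of the receptors that signal to NF-kB, 16 of 26 listed genes were tested, 8 rose (50.0%) and 2 fell (12.5%), with a median of 1.13. TNFRSF9, a costimulatory receptor of activated T cells, rose by 6.04 ± 0.61 (SE; limma-voom adjusted p = 0.000190). CD27, another lymphocyte receptor, had 5097 reads in SP and 2 in NSP libraries, a ratio of scaled levels of 3051 with an exact counting interval of 844 to 25203, or 4611 without NSP library 4, which held 1 of the 2 reads. TLR10 had 452 reads in SP and none in NSP libraries and was at least 180-fold higher in SP, against 3 reads over the NSP group. Of these reads 304 were in SP library 1 (16.5 CPM) and 24 to 87 in each other SP library, and without SP library 1 the bound was 79.8. EDAR, a receptor of ectodermal development, had no read in SP and 249 in NSP libraries and was at least 69.3-fold lower in SP, on the same floor. IL1RAP, the shared chain of interleukin 1 family receptors, fell by 1.38 ± 0.27 (SE; limma-voom adjusted p = 0.00388). CD40 is not analysed here.

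Of the ligands, 11 of 17 listed genes were tested, 6 rose (54.5%) and 2 fell (18.2%), with a median of 2.37. LTA, LTB, IL1B and TNFSF11, which are 4 of the 6 that rose, are the ligands tested through their SP libraries, and the median rests on them. TNF, the prototype activator of the canonical pathway, had 68.7 ± 23.4 CPM in SP cells against 11.6 ± 4.27 CPM in NSP cells (SD, n = 4 each), a log2 fold change of 2.58 ± 0.41 (SE; limma-voom adjusted p = 0.00134). LTB, which with LTA forms the lymphotoxin that triggers the noncanonical pathway, had 5662 SP and 21 NSP reads (limma-voom adjusted p = 0.000402). LTA had 614 SP reads and 1 NSP read, a ratio of 735 (exact counting interval 131 to 29084). Without NSP library 1, which held that read, LTA was at least 181-fold higher in SP. Both ligands that were lower are interleukins, but other interleukins of the list were not lower. IL33 rose by 2.37 (limma-voom adjusted p = 0.0357) and IL1B also rose. IL36A and IL36G did not pass the test (limma-voom adjusted p = 0.522 and 0.0736). IL18 fell by 1.53 ± 0.30 (SE; limma-voom adjusted p = 0.00388), and IL1A fell by 2.34 ± 0.62 (SE; limma-voom adjusted p = 0.0169). IL1A did not pass without SP library 2 (adjusted p = 0.0504), where 1 ligand fell and 11.1% of all genes did.

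Of the genes with known NF-kB sites, 23 of 32 listed were tested, 10 rose (43.5%) and 4 fell (17.4%), with a median of 1.09. CCL5, a chemokine of T cells, had 3381 ± 2001 CPM in SP cells against 0.223 ± 0.199 CPM in NSP cells (SD, n = 4 each; limma-voom adjusted p = 0.000209, on 19 NSP reads in all). CCL5 is 1 of 4 listed genes, VCAM1 among them, that passed the filter through SP libraries alone and could only be called higher. CD83, a surface protein of mature dendritic cells and lymphocytes, rose by 5.65 ± 0.50 (SE; limma-voom adjusted p = 0.000108). VCAM1, an adhesion molecule of endothelium, had 1781 SP and 3 NSP reads, a ratio of 711 (exact counting interval 243 to 3450). Its 3 NSP reads were all in NSP library 4. In the other direction, PLAU, the urokinase protease, fell by 2.83 ± 0.59 (SE; limma-voom adjusted p = 0.00539), or by 2.24 without SP library 3. CXCL8, the neutrophil chemokine, fell by 2.29 (adjusted p = 0.00894), and NOS2, the inducible nitric oxide synthase, fell by 1.83 (adjusted p = 0.0244). NOS2 did not pass without SP library 3 (adjusted p = 0.0691) or NSP library 2 (0.0508), and without NSP library 2 the number that fell was 2, beside 9.95% of all genes. Genes with known NF-kB sites were called in both directions, while NFKBIA and TNFAIP3, which are also known targets, did not pass the test in either. Whether NF-kB acts on these genes in these cells was not tested. The markers of endothelium, leukocytes and epithelium moved with the same groups by the amounts given above, and their part in these changes was not tested.

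Immediate early and dissociation genes, which respond to handling of tissue, were counted because NFKBIA and TNFAIP3 respond quickly to stimuli as well. Of 26 listed, 14 were tested, 0 rose and 4 fell (28.6%), with a median of −0.37. No gene of this list was higher at an unadjusted p of 0.05, and limma-trend called 0 higher and 3 lower. The largest falls were those of FOSL1, an AP-1 subunit, by 3.50 (limma-voom adjusted p = 0.000164), BTG2, a brake on proliferation, by 1.72 (adjusted p = 0.00133), and EGR1, an early growth response factor, which fell by 1.597 (adjusted p = 0.00742).

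**Figure D5:**
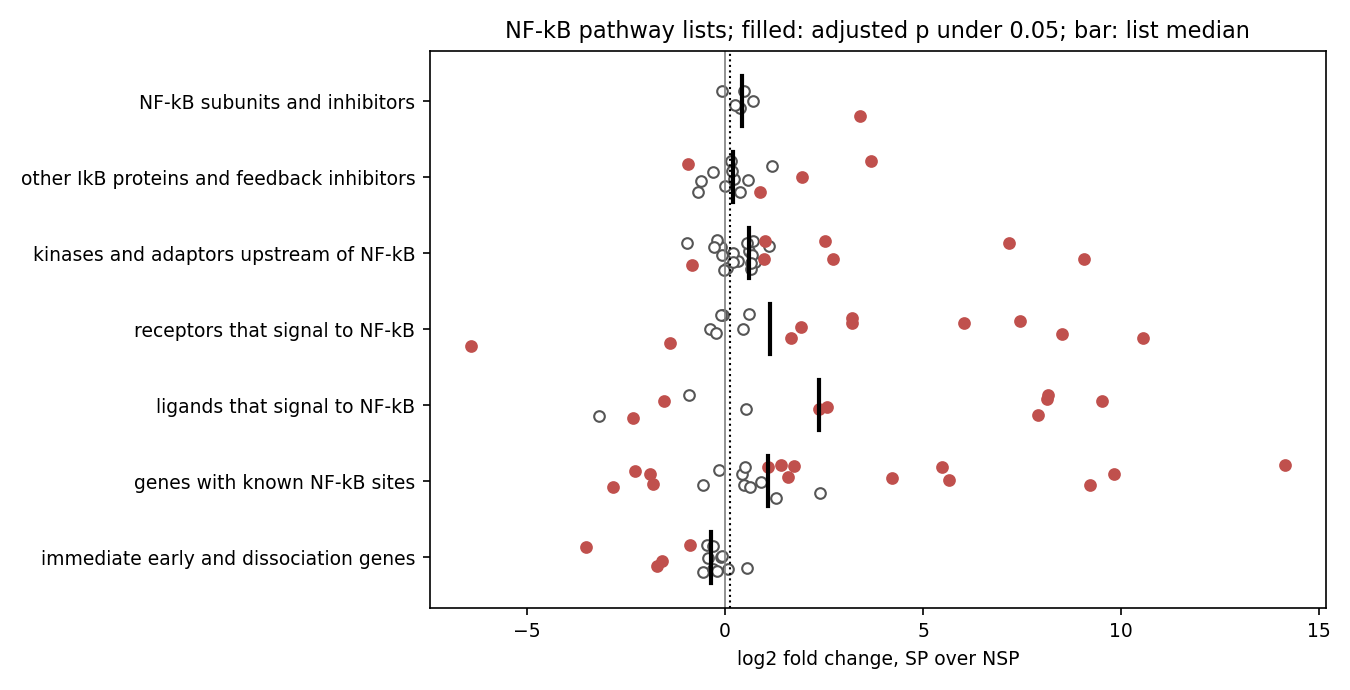
Log2 fold change, SP over NSP, of the tested genes of the NF-kB subunits and inhibitors and of each pathway list (1 point per gene, filled where the adjusted p is under 0.05), with the list median as a bar and the median of all genes as a dotted line. Genes without a read in 1 group (TLR10, EDAR and SELE) are drawn at their fitted values, which are not bounds, and the receptor and ligand lists spread farther than the 6 measured members.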

How the data were processed

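The 8 libraries are Ion Proton sequencing of total RNA, per the labels. Aligner, annotation and build: not given in the sources used here. A single deposited table holds fixed-width fields of 8 characters that touch, with headers cut at the same width, so it was read by character position. Of each library the deposited whole-number exon, junction, intron and gene read counts were used, with the exon length. For every gene exon plus intron reads equal the gene reads, which is how these fields were recognised. The deposited RPKM values are scaled to 1000000 gene reads and were not used for levels. Deposited fold changes and EDGE p-values are the authors', per the file headers. Names are cut at 8 characters: 10918 of 20922 entries had a usable name, of which 315 were completed from RefSeq symbols (mOryCun1.1, names only), and the entries without one held 10.1% of exon reads but stayed in totals and tests. No sequence or coordinate is given.

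TMM factors (30% and 5% trimmed) brought exon counts to CPM, and levels between genes were compared per kilobase of exon. Genes with at least 0.508 CPM in 4 libraries and 15 reads in all were tested with limma-voom (limma 3.58.1, R 4.3.3; offset 0.5; group only), two-sided, with Benjamini-Hochberg adjustment over all genes at 0.05. edgeR's quasi-likelihood test was not run. Intron and junction reads were tested the same way, after the data were seen. No 2 libraries of a group agreed within sampling noise (chi-square per gene of 51.8 or more). Counting intervals are exact at 95% and cover counting error only.

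The members and lists were chosen with earlier results of these data known. Named are the 8 members, 14 fixed pathway genes, up to 3 called genes of each list in each direction (those of smallest p), and 2 genes of most similar pattern per measured member. SELE, IL1B, TNFSF11, IL33, IL36A, IL36G, MS4A1 and the other markers at 0 were named after their values were seen. As alternatives, limma-trend, quality weights, 2 other filters, upper-quartile and median-ratio factors and fits without each library in turn were tried. Tables were made with pandas 2.3.3, SciPy 1.17.1 and NumPy 2.4.6 in Python 3.11.15, and figures with matplotlib 3.10.9.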

Additional observations from a re-analysis of the deposited data

Results flagged for a closer look

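Values that lie apart from the other 3 libraries of their group were looked for with Dixon's ratio at its 95% critical value, over 86 sets of 4 values, and 11 were found. For normally distributed values chance alone flags about 1 in 20 such sets. Sets with reads in a single library, given below, are flagged whatever their value. The 11 flags are therefore not compared with a chance rate.

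For REL, the SP library with the highest intron share had 89.4%, against 58.4 to 59.9% in the other 3 SP libraries, and it was SP library 4. REL also had a lowest NSP library of 21.2 CPM, beside 26.04 to 26.8 CPM in the other 3. For TNFAIP3, the lowest intron share among NSP libraries was 2.13%, beside 2.52 to 2.57% in the other 3.

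Of the pathway genes, MAP3K14 reached 161 CPM in SP library 4, beside 38.2 to 58.99 CPM in the other SP libraries, and TNFRSF9 reached 582 CPM in SP library 3, beside 192 to 218 CPM. In NSP libraries, NFKBIB had a highest value of 65.2 CPM (50.2 to 51.9 CPM in the other 3), FOSL1 one of 488 CPM (382 to 384 CPM), and IL18 a lowest value of 111 CPM (166 to 175 CPM). There were 3 genes with reads in a single NSP library, with PRKCQ at 0.540 CPM and LTA at 0.0450 CPM in NSP library 1, and VCAM1 at 0.145 CPM in NSP library 4. No explanation of these values was tested.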

How the results depend on the processing

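The scaling moved the median log2 fold change of all genes by −0.12 with median-ratio factors and by −0.18 with upper-quartile factors. Of all calls, 57.7% were higher in SP as reported (1774 higher, 1301 lower), 51.0% with median-ratio factors (1557 and 1496) and 46.9% with upper-quartile factors (1439 and 1627). NFKBIE was called higher in each of the 14 alternatives, with log2 values of 3.17 to 3.54. The number of members called higher was 2 with quality weights, the second being REL, and 1 to 2 with each library left out, while 0 were lower in each of these fits. Leaving out libraries moved the log2 value of NFKB1 between −0.29 and 0.072, that of NFKBIA between −0.11 and 0.57, and that of REL between 0.39 and 1.15. For TNFAIP3 intron reads gave −0.10, and −0.25 to 0.14 with libraries left out. MAP3K14 turned to −0.087 with median-ratio factors, −0.14 with upper-quartile factors and −0.16 with quality weights, and lay between −0.50 and 0.31 with libraries left out. With libraries left out, 0 to 3 other IkB and feedback genes rose and 0 to 1 fell, 3 to 8 kinases and adaptors rose and 0 to 1 fell, 1 to 3 ligands fell, and 2 to 4 genes with known sites fell. With upper-quartile factors 2 other IkB and feedback genes fell. The cause of these shifts was not tested. No paired analysis was possible because the columns of the table carry a group but no replicate number. NSP libraries with 0 to 3 reads of a gene limit the fold of that gene to a bound or a wide interval.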
